A study of Mus musculus with 36 samples.

Results

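Hepatocytes, the parenchymal cells of the liver, were compared 36 h after an injection of diphtheria toxin and in mice given PBS, using the 8 libraries that the sample titles name as hepatocyte WT 1 to 4 and hepatocyte 36 h 1 to 4, of 36 in the series. The WT group received PBS without toxin. In the 36 h group the toxin served to deplete Kupffer cells, macrophages that reside in the liver sinusoids, and the question is what hepatocytes express once these neighbours are gone. All 8 libraries are of C57BL/6 liver RNA. The labels used here state no genotype, toxin receptor or promoter driving one, no sex, age, feeding state or time of day, and they do not say whether each library is 1 mouse. No group received toxin with its Kupffer cells intact, so toxin and depletion cannot be told apart, and p-values below measure the spread between libraries. The series also holds hepatocytes at 12 h and hepatic stellate cells (HSCs) and liver sinusoidal endothelial cells (LSECs) at the same times, with 4 libraries a group, used here only where they bear on the 36 h hepatocytes.

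Hepatocytes make most plasma proteins, and during inflammation cytokines, above all interleukin-6 acting through STAT3 and C/EBP factors, raise a set of secreted acute phase proteins such as serum amyloid A, haptoglobin and orosomucoid. Between meals hepatocytes release glucose made from amino acids and lactate, with Pck1 and G6pc at the controlled steps, and cells near the portal vein carry most of this work together with urea synthesis. Bone morphogenetic proteins from sinusoidal cells act on hepatocytes through SMAD factors, whose known targets include the Id genes and Hamp, the gene of the iron hormone hepcidin.

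Depth was even, at 26195934 to 30631781 gene counts per library, but the libraries fell into 2 kinds that cut across the groups. Levels below are in CPM, the counts of a gene per 1000000 counts of the library after TMM scaling of its size. Malat1, a long RNA that stays in the nucleus, was counted at 376, 367, 34.2 and 26.0 CPM in WT replicates 1 to 4 and at 245, 272, 24.4 and 44.2 CPM in 36 h replicates 1 to 4. Replicates 1 and 2 were thus high and replicates 3 and 4 low in both groups, and the first principal component, with 49.4% of the variance, separated these same libraries rather than the groups. Alb, the albumin gene, was counted at 26546 to 45218 CPM in all 8 libraries, and the summed CPM of 20 hepatocyte identity genes ranged from 106761 to 135690 in WT and from 118456 to 150726 at 36 h. The 15 Kupffer cell markers summed to 19.3, 33.4, 2.21 and 3.67 CPM in WT and to 2.35, 1.32, 1.10 and 0.645 CPM at 36 h. Of these, Clec4f had 63, 147, 3 and 13 counts in WT replicates 1 to 4, and Vsig4 27, 35, 1 and 8, with 0 at 36 h for both. Cd163 (2, 43, 0 and 0 in WT) and Timd4 (10, 13, 0 and 0) also had 0 at 36 h. These 2 were thus already at 0 in WT replicates 3 and 4. The other markers kept counts at 36 h, for example Csf1r with 346 over WT and 53 at 36 h, Cd5l with 194 and 26, and Slc11a1 with 34 and 25. A count of 0 allows up to 3 counts over the group. The sums of WT replicate 3 and 36 h replicate 1 overlapped, while the sum was lower at 36 h for each replicate number. Other marker lists overlapped between the groups as well: LSEC markers summed to 8.25 to 21.5 CPM in WT and 8.997 to 13.03 CPM at 36 h, stellate cell markers to 1.39 to 3.38 and 0.861 to 2.48 CPM, cholangiocyte markers to 27.0 to 33.9 and 23.6 to 37.9 CPM, and monocyte and neutrophil markers to 1.80 to 7.81 and 1.05 to 5.71 CPM. In bulk RNA fewer cells of a type and less RNA per cell cannot be told apart.

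**Figure D1:**
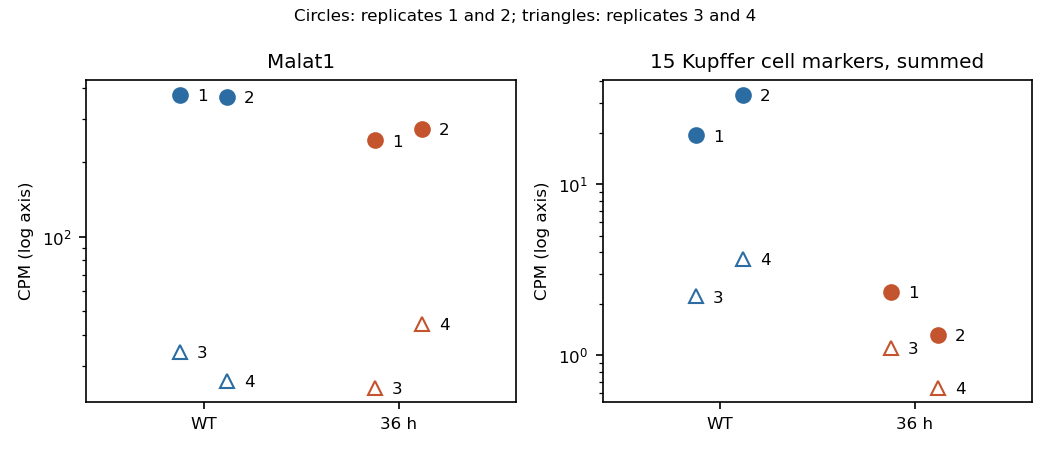
CPM of Malat1 (left) and summed CPM of the 15 Kupffer cell markers (right) in each library, on log axes, for WT (blue) and 36 h (orange); circles are replicates 1 and 2, triangles replicates 3 and 4, and the digit is the replicate number. Malat1 lies between 245 and 376 CPM in replicates 1 and 2 and between 24.4 and 44.2 CPM in replicates 3 and 4, and in WT the Kupffer cell markers are higher in replicates 1 and 2.

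Among 11088 genes tested, the hepatocytes at 36 h differed from WT in a number of genes that depended on the pairing of libraries, the tool and the filter. With the groups compared unpaired, the quasi-likelihood test of edgeR, adjusted after Benjamini and Hochberg, called 0 genes (0%), while 433 genes (3.91%) had an unadjusted p under 0.05 and DESeq2 called 51 (0.46%). The smallest unpaired adjusted p was 0.103, for Orm2, and the next 0.407. With replicate number as a pair term, which takes out differences shared by libraries of the same number, 31 genes (0.28%) were called, 18 higher (0.162%) and 13 lower (0.117%) at 36 h. The same paired design gave 160 calls without the filter on low counts and 298 with DESeq2, both with all 31 among them. The count of 31 rests on replicate pair 1: without it the paired fit called 0 genes, and without pairs 2, 3 and 4 it called 24, 54 and 16. In place of the pair term, a term for the Malat1 side called 24 genes (0.216%), 19 of them among the 31. Every gene of the 31 moved the same way in all 4 pairs, as did 1132 (10.2%) and 1367 (12.3%) of all genes tested upward and downward. Between the groups 23 of the 31 did not overlap, against 318 genes of all tested (2.87%), and their folds ran from 1.46 to 4.26. Calls below are those of the paired fit unless stated, and "rose" and "fell" are used for these 31 genes, each of which had an unpaired adjusted p of 0.103 or more. Counts of called list members below stand beside these shares of all genes tested: 0.28% called, 0.162% higher and 0.117% lower. A single called member is no result about its list.

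**Figure D2:**
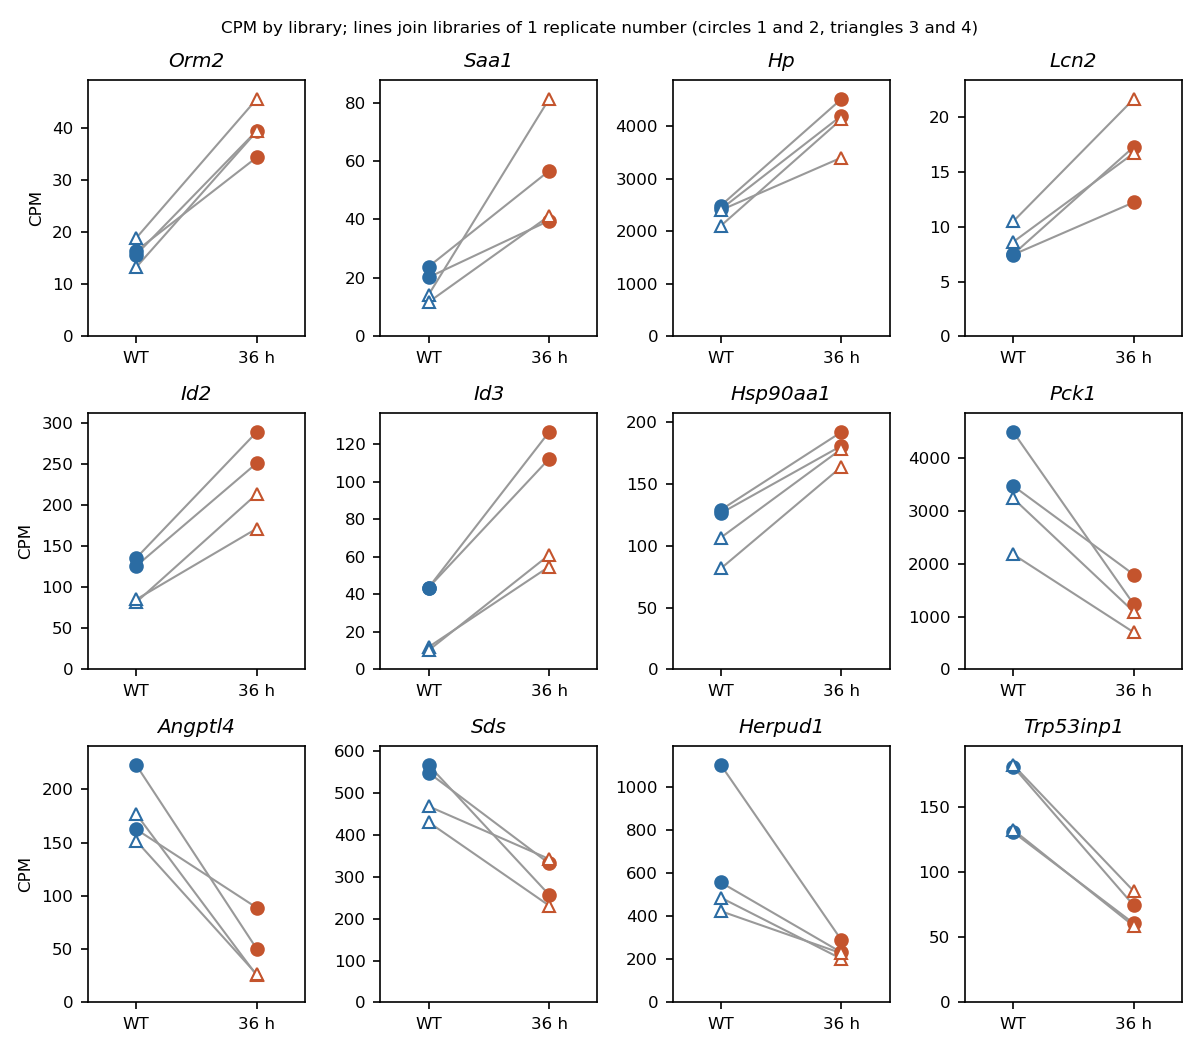
CPM in each library (vertical axes from 0) for 12 genes called with the pair term, WT in blue and 36 h in orange, with grey lines joining libraries of 1 replicate number; circles are replicates 1 and 2, triangles replicates 3 and 4. In each of the 12 panels all 4 lines run the same way and the 2 groups do not overlap.

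Acute phase proteins, the plasma proteins that the liver secretes more of in inflammation, gave 4 of the 18 genes that rose. Of the 28 listed genes, all tested, Orm2, Saa1, Hp and Lcn2 rose and none fell, where 0.162% of all genes tested rose and 0.117% fell. The list was chosen with earlier results of these data known, so these shares are a description only. The median of the list's unpaired log2 fold changes was 0.07, against -0.01 over all genes tested. Of the 4 risen genes, Hp has no entry in the RefSeq promoter table and was not searched. The DNA just before the start of the other 3 is printed here because, once their values were seen, it was found to hold the same letters. The 250 bases come from the RefSeq promoter table on GRCm38.p6, read 5′ to 3′ on the strand of the gene, and capitals mark TTGCNNAA, the core of a C/EBP site. Orm2 lies at chr4:63362199-63362448 on the plus strand, with the capitals at positions -120 to -113 counted from the start, Saa1 at chr7:46742981-46743230 on the minus strand (positions -182 to -175), and Lcn2 at chr2:32387740-32387989 on the minus strand (positions -216 to -209).
Orm2: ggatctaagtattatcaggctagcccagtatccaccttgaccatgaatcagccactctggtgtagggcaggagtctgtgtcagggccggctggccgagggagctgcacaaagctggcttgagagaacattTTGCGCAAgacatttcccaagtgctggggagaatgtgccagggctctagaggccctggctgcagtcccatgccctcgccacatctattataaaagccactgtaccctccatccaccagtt
Saa1: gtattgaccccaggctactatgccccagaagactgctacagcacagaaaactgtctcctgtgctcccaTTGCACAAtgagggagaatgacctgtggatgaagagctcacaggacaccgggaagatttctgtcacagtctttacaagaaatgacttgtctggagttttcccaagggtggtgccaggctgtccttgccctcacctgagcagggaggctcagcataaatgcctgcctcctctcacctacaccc
Lcn2: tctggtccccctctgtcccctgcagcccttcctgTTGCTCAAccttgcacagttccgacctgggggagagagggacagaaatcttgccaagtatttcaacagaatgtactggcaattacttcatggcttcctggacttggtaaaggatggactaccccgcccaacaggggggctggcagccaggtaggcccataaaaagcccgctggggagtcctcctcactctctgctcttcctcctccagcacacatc
Searched on both strands, these letters are in 10.8% of the 32851 promoters of the table, in 3 of the 14 called risen genes with an entry and in 0 of the 6 fallen ones. A match of letters is a description and not a site.

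Orm2, one of the orosomucoid genes, was counted at 16.4, 15.7, 18.8 and 13.2 CPM in WT and at 34.3, 39.4, 45.5 and 39.3 CPM at 36 h. All 36 h libraries lay above all WT libraries, a log2 fold change of 1.31 ± 0.11 (SE; adjusted p = 0.00601 paired, 0.103 unpaired, edgeR). Saa1, a serum amyloid A gene, went from 20.2, 23.8, 14.2 and 11.7 CPM to 39.6, 56.6, 81.2 and 41.2 CPM (1.63 ± 0.23, adjusted p = 0.0333 paired, 0.407 unpaired, edgeR). Its groups did not overlap either, and the highest library was 36 h replicate 3. Hp encodes haptoglobin, which binds free haemoglobin, and was by far the most abundant of the 4. Its 2421, 2490.1, 2403 and 2105 CPM in WT compared with 4200.0, 4518, 3403 and 4134 CPM at 36 h, a 1.72-fold rise (log2 0.78 ± 0.10, adjusted p = 0.03, paired edgeR). Lcn2, the iron-scavenging lipocalin, was at 7.47 to 10.5 CPM in WT and 12.2 to 21.7 CPM at 36 h (0.98 ± 0.13, adjusted p = 0.032, paired edgeR).

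Most listed acute phase genes did not pass the test. Saa3, at 1.04 to 4.26 CPM in WT and 6.17 to 12.5 CPM at 36 h, did not overlap between groups but had an adjusted p of 0.0579 with the pair term. Orm1, at 578 to 841 and 589 to 1165 CPM, had a log2 fold change of 0.15 ± 0.10, and Orm3, at 7.59 to 12.5 and 5.10 to 9.27 CPM, one of -0.60 ± 0.18 (adjusted p = 0.546 and 0.21, paired edgeR). The orosomucoid genes and the serum amyloid A genes are close copies, and how the authors assigned reads between them is not given in the sources used here, so the split within each family is uncertain. The receptor Il6ra, through which hepatocytes sense interleukin-6, was counted at 41.7, 33.6, 28.4 and 25.8 CPM in WT and at 15.6, 10.6, 19.4 and 15.5 CPM at 36 h. Its groups did not overlap, yet the adjusted p was 0.0642 paired and 0.407 unpaired. Cebpb, a C/EBP factor, was at 741, 486, 405 and 367 CPM and 166, 191, 251 and 383 CPM (-1.03 ± 0.30, adjusted p = 0.203, paired edgeR). Cish, a STAT-induced inhibitor of cytokine receptors, was higher in all 4 pairs, from 3.09 to 10.96 CPM in WT to 8.68 to 23.7 CPM, with an adjusted p of 0.0642. Of 29 interferon-stimulated genes tested, 0 were called.

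Id2 and Id3, inhibitors of helix-loop-helix transcription factors and known targets of BMP signalling, rose, while hepcidin did not rise with them. Id2 was counted at 126, 135, 81.7 and 85.1 CPM in WT and at 251, 289, 213 and 171 CPM at 36 h, a 2.17-fold rise (log2 1.12 ± 0.09, adjusted p = 0.00589 paired, 0.407 unpaired, edgeR). Id3 stood at 43.5, 43.6, 11.9 and 10.1 CPM in WT and at 126, 112, 54.7 and 61.0 CPM at 36 h (1.90 ± 0.19, adjusted p = 0.0145 paired, 0.849 unpaired, edgeR). Its level differed by the Malat1 side within each group, and the rise was seen within both sides, at 1.45 in replicates 1 and 2 and 2.40 in replicates 3 and 4 on the log2 scale. Hamp was at 491, 439, 355 and 354 CPM in WT and at 199, 323, 286 and 229 CPM at 36 h, lower in every 36 h library but not called (-0.67 ± 0.15, adjusted p = 0.127, paired edgeR). Its near-copy Hamp2 was lower in all 4 pairs, at 181, 314, 529 and 537 CPM against 58.8, 85.2, 395 and 364 CPM (-1.12 ± 0.24, adjusted p = 0.108, paired edgeR). The split of reads between these copies is uncertain in the same way. Of the 20 listed genes of iron and hepcidin control, all tested, Id2 and Id3 were the 2 called, where 0.162% of all genes tested rose. Id1, Smad6, Smad7 and Atoh8 of this list were not called. In all 4 pairs 3 of the 20 were higher and 3 lower, against 10.2% and 12.3% of all genes tested. Bmp4, a BMP ligand, was counted near the limit of detection, at 0.16 to 0.28 CPM in WT and 0.53 to 1.26 CPM at 36 h (adjusted p = 0.116, paired edgeR).

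**Figure D3:**
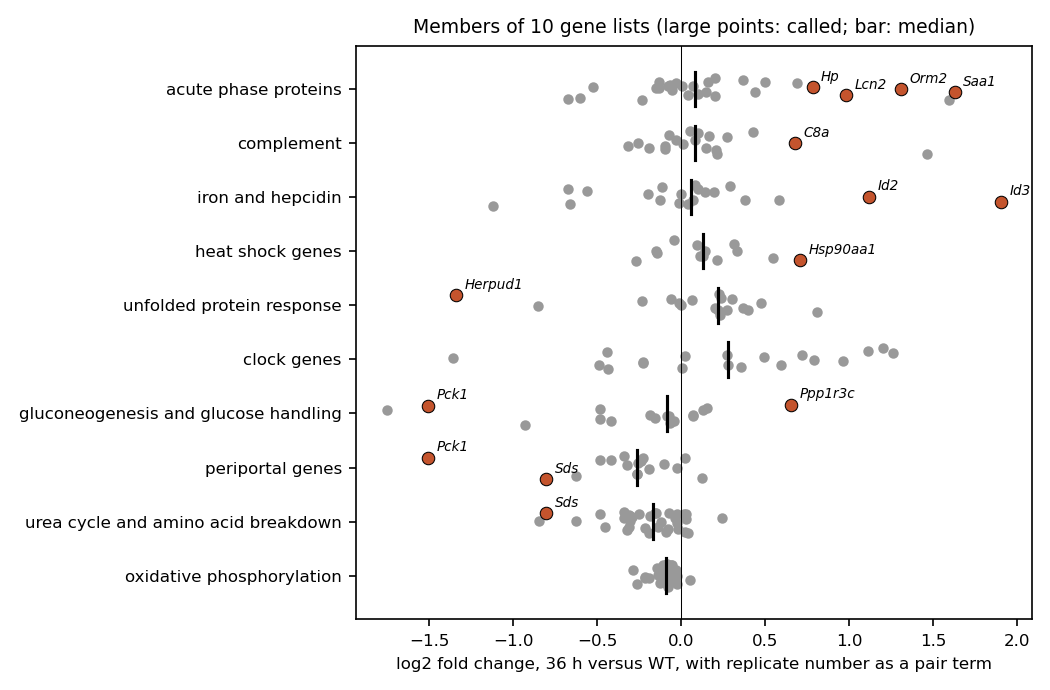
Log2 fold change at 36 h versus WT, from the fit with replicate number as a pair term, for each tested member of 10 gene lists; large orange points are called genes, grey points are not called and the bar is the list's median. Called members of the acute phase, complement and heat shock lists lie to the right of 0, as do Id2, Id3 and Ppp1r3c. Id2 and Id3 are the called genes of the iron and hepcidin list, whose Hamp and Hamp2 were not called. Herpud1, Pck1 and Sds lie to the left.

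Pck1, the enzyme that commits oxaloacetate to glucose synthesis, fell the most in CPM of all 31 genes. It was counted at 4494, 3474, 3238 and 2177 CPM in WT and at 1232, 1796, 1091 and 701 CPM at 36 h. No libraries overlapped, and the fall was 2.84-fold (log2 -1.51 ± 0.14, adjusted p = 0.00942 paired, 0.407 unpaired, edgeR). Its promoter is printed because the cyclic AMP response element there is the classical route by which fasting signals act on this gene. The 250 bases before the start are chr2:173152823-173153072 on the plus strand (GRCm38.p6, RefSeq promoter table), and capitals mark TTACGTCA, at positions -93 to -86 from the start.
Pck1: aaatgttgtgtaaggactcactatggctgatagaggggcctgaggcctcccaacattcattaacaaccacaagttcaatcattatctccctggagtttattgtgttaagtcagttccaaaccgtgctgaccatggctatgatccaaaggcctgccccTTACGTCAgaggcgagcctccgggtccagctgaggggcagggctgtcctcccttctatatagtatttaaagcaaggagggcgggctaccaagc
These letters are in 0.499% of all promoters of the table and in 0 of the other 19 called genes with an entry. Among the other letters searched on both strands, TTCNNNGAA (STAT, 8.30% of promoters) was in 3 of the 14 risen and 1 of the 6 fallen genes, TGCNCNC (heavy metal response, 51.0%) in 8 and 2, and CACGTG (E-box, 7.15%) in 1 and 0. The full cyclic AMP letters TGACGTCA (1.79%) were in 1 and 0, GGCGCC (BMP and SMAD, 11.9%) in 1 and 1, and the interferon response element (3.44%) in 0 and 1. The NF-kB site (1.63%), TTATGTAA (D-box, 0.938%), TGACCTTTG (HNF4 and PPAR, 0.478%) and the endoplasmic reticulum stress element (0.119%) had 0 matches in these genes. For the endoplasmic reticulum stress element only the long form was searched. Shorter forms were not, so its 0 matches do not show that Herpud1 or another called gene lacks such an element. Some of the letters searched overlap in part, as do both forms of the cyclic AMP element. Among the 17 listed genes of glucose handling, all tested, Pck1 fell and Ppp1r3c, which targets a phosphatase to glycogen, rose from 73.1, 84.9, 43.3 and 43.8 CPM to 134, 119, 66.2 and 68.0 CPM (0.65 ± 0.09, adjusted p = 0.0321, paired edgeR). G6pc, the last step of glucose release, was at 398 to 732 CPM in WT and 246 to 744 CPM at 36 h, with overlapping groups.

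Pck1 and Sds also belong to the genes known to be higher near the portal vein. Of 17 periportal genes tested, Pck1 and Sds fell, 11 were lower in all 4 pairs and 0 were higher in all 4, and the list's unpaired median log2 fold change was -0.25. Of all genes tested 0.117% fell, 12.3% were lower in all 4 pairs and 10.2% were higher in all 4. Sds, serine dehydratase, was counted at 567, 549, 469 and 431 CPM in WT and at 257, 332, 343 and 231 CPM at 36 h, without overlap (-0.80 ± 0.11, adjusted p = 0.0339 paired, 0.423 unpaired, edgeR). Among 34 genes of the urea cycle and amino acid breakdown, of which 8 are also in the periportal list, Sds was the 1 called, 16 were lower in all 4 pairs and 1 was higher in all 4. Uroc1 of histidine breakdown was at 379 to 598 CPM in WT and 226 to 435 CPM at 36 h, and Hal, its neighbour in the pathway, at 816 to 1092 and 661 to 833 CPM. Neither was called (adjusted p = 0.08 and 0.13, paired edgeR). The same holds for the urea cycle gene Ass1, at 8.79 to 13.9 and 4.86 to 10.5 CPM (adjusted p = 0.149). Slc7a2, a transporter of cationic amino acids such as arginine, fell 2.01-fold, from 235, 207, 750.3 and 503 CPM to 126, 76.3, 492 and 236 CPM. Its groups overlapped because replicates 3 and 4 were higher in both, and it was called only with the pair term (adjusted p = 0.03; unpaired unadjusted p = 0.167, edgeR). Of 17 pericentral genes tested, 0 were called.

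Angptl4, Rgs16 and Ccrn4l had the largest falls by fold of the 13 genes that fell. Angptl4, a secreted inhibitor of lipoprotein lipase induced in fasting, went from 223, 162, 177 and 152 CPM to 50.2, 88.8, 25.3 and 26.3 CPM, 4.26-fold lower (log2 -2.09 ± 0.28, adjusted p = 0.032, paired edgeR). It was the 1 called gene of 26 tested targets of PPAR alpha and fatty acid oxidation. Rgs16, which shortens signalling by G protein-coupled receptors, fell 3.94-fold, from 78.4, 67.0, 59.5 and 127 CPM to 14.0, 16.5, 34.2 and 21.2 CPM. Ccrn4l, the rhythmic gene nocturnin, fell 3.36-fold, from 68.2, 32.3, 33.8 and 36.0 CPM to 12.6, 6.999, 11.8 and 19.9 CPM, with WT replicate 1 far above the other WT libraries. Neither gene overlapped between groups. G0s2, an inhibitor of the lipase that releases stored fat, rose from 30.8, 73.1, 21.6 and 26.5 CPM to 89.3, 119, 47.3 and 50.03 CPM (1.07 ± 0.13, adjusted p = 0.03, paired edgeR).

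Trp53inp1, a p53 target of stress and autophagy, had the smallest adjusted p of the 31 genes. Its 181, 131, 182 and 133 CPM in WT became 74.4, 60.6, 85.3 and 58.6 CPM (-1.17 ± 0.08, adjusted p = 0.00258 paired, 0.407 unpaired, edgeR), and it was the 1 called p53 target of 15 tested. Herpud1, which serves the removal of misfolded proteins from the endoplasmic reticulum, fell from 1101, 557, 486 and 423 CPM to 289, 232, 202 and 228 CPM (-1.34 ± 0.15, adjusted p = 0.0219, paired edgeR). Of 18 tested members of the unfolded protein response Herpud1 was the 1 called. Without passing the test, 7 others were higher in all 4 pairs, against 10.2% of all genes tested. Edem1 was lower in all 4 (-0.23 ± 0.09, adjusted p = 0.283, paired edgeR). Tnfrsf1b, a receptor of tumour necrosis factor, fell 2.56-fold, from 29.4 to 43.2 CPM in WT to 8.86 to 19.99 CPM at 36 h. It is also expressed by macrophages, and its WT replicates 3 and 4 stood at 43.2 and 34.0 CPM where the Kupffer cell markers together summed to 2.21 and 3.67 CPM. The part of macrophage RNA in its fall was not tested. Cyp17a1, a steroid hydroxylase, was at 106, 123, 240.2 and 326 CPM and 50.2, 64.5, 170.0 and 185 CPM (-0.83 ± 0.10, adjusted p = 0.03, paired edgeR). It was the 1 called of 36 genes listed for cytochrome P450 enzymes, a list that also holds Por, Nr1i2 and Nr1i3. Slco1a4, an organic anion importer and the 1 called of 24 bile acid genes, fell 1.57-fold, and Cep85l and Fam46c fell 2.24-fold and 2.35-fold.

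Hsp90aa1, the inducible cytosolic HSP90, was counted at 126, 129, 81.5 and 106 CPM in WT and at 181, 192, 164 and 178 CPM at 36 h, without overlap (0.71 ± 0.10, adjusted p = 0.0321 paired, 0.542 unpaired, edgeR). Stip1, the co-chaperone that links HSP70 to HSP90, rose 1.52-fold (adjusted p = 0.0438, paired edgeR). Of 13 heat shock genes tested, Hsp90aa1 was the 1 called. C8a, a subunit of the complement membrane attack complex, went from 179, 129, 127 and 109 CPM to 251, 211, 197 and 199 CPM (0.68 ± 0.09, adjusted p = 0.03), the 1 called of 19 complement genes tested. Foxa2, a hepatic transcription factor, was at 17.1 to 26.7 CPM in WT and 31.9 to 43.1 CPM at 36 h, and Nuak2, a kinase related to AMPK, at 4.64 to 8.12 and 10.5 to 19.8 CPM. Both rose without overlap, by 1.66-fold and 2.78-fold. Efna1, an ephrin ligand, rose 2.14-fold, Tsc22d1 1.82-fold, the transporters Slc17a3 and Slc16a5 1.46-fold and 1.51-fold, and Clstn3, the last of the 18, 2.06-fold from 1.47 to 7.70 CPM in WT.

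Several programmes had no called member. The clock list had 0 of 19 called, although 4 genes were higher and 2 lower without overlap, against 318 of all 11088 genes (2.87%). Among them Wee1 was at 2.40 to 4.78 CPM in WT and 7.12 to 9.03 CPM at 36 h, and Per1 at 5.60 to 11.1 and 1.29 to 5.23 CPM (adjusted p = 0.08 and 0.164, paired edgeR). The labels give no time of day, and its part in these values or in those of Ccrn4l was not tested. Of 35 oxidative phosphorylation genes 0 were called and 17 were lower in all 4 pairs, against 12.3% of all genes tested. Their unpaired median log2 fold change was -0.08. Ribosomal proteins (76 tested), proteasome subunits (38), cholesterol synthesis (23), chemokines (8) and macrophage niche ligands (10) had 0 calls each, as had the 20 hepatocyte identity genes.

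The pairs of libraries on each Malat1 side give the same comparison in disjoint sets of samples. Fitted alone, which leaves 2 libraries a group, replicates 1 and 2 gave 20 calls, 4 higher and 16 lower, and replicates 3 and 4 gave 17, 14 higher and 3 lower. Of the 19 genes called in replicates 1 and 2 that were tested in both, all 19 had the same direction in replicates 3 and 4, and 12 of them also an unadjusted p under 0.05 there. Of the 17 called in replicates 3 and 4, 9 had the same direction in replicates 1 and 2. Over all 10927 genes tested in both, 58.9% had the same direction. Id3 and Lpin1 were called in both. Lpin1, a phosphatidate phosphatase and coactivator induced in fasting, was at 406, 282, 271 and 339 CPM in WT and at 36.6, 38.7, 131 and 122 CPM at 36 h, a log2 fold change of -3.19 in replicates 1 and 2 and -1.26 in replicates 3 and 4. With the pair term it missed the call (-2.20 ± 0.37, adjusted p = 0.0639, edgeR). Bcl6, Tat, Cebpb and Ddit4 were called lower in the fit of replicates 1 and 2 and not in that of replicates 3 and 4, but the difference between both responses was not called for any of them (adjusted p = 0.339, 0.380, 0.510 and 0.485, edgeR). Tat, the tyrosine aminotransferase, stood at 4484 and 3961 CPM in WT and 1403 and 1732 CPM at 36 h there, against 3918 and 3594 and then 2773 and 3530.4 CPM in replicates 3 and 4.

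A test of the difference between the responses of both sides, added after the data were seen, called 2 of 11088 genes (0.018%) with edgeR, while 403 had an unadjusted p under 0.05. Slc25a25, a mitochondrial ATP carrier, was counted at 359.8, 213, 84.3 and 75.1 CPM in WT and at 126, 94.5, 315 and 310.1 CPM at 36 h. It was lower at 36 h in replicates 1 and 2 and higher in replicates 3 and 4, a difference between responses of 3.35 ± 0.33 on the log2 scale (adjusted p = 0.0256). Dusp1, an immediate early phosphatase, was at 139, 116, 28.0 and 25.2 CPM in WT and at 116, 97.7, 107 and 156 CPM at 36 h (difference 2.57 ± 0.28, adjusted p = 0.0256). Sgk1, a kinase induced by glucocorticoids, had the same shape, at 30.9, 19.0, 10.3 and 13.7 CPM and then 12.1, 5.43, 36.0 and 43.7 CPM, but was not called (adjusted p = 0.187).

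**Figure D4:**
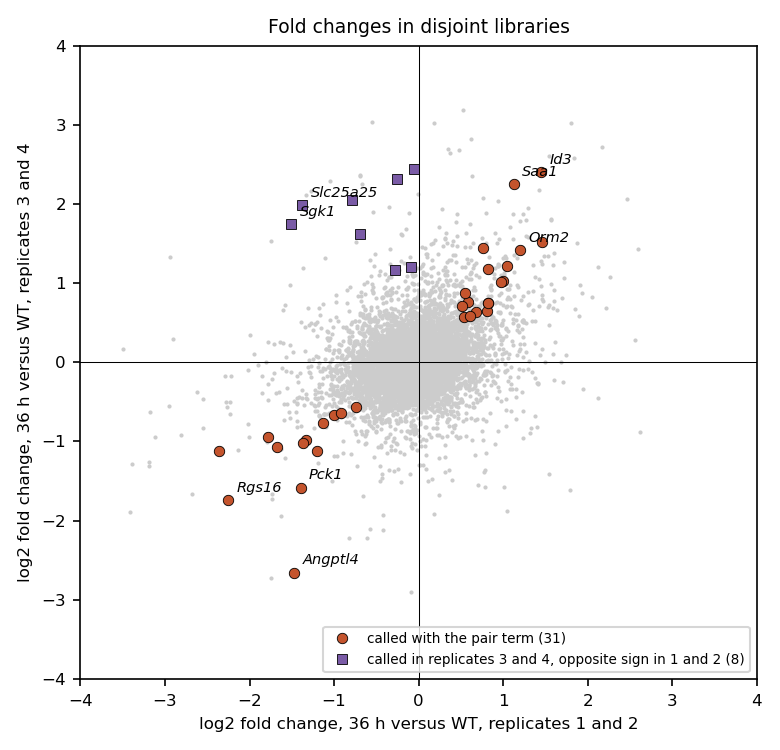
Log2 fold change at 36 h versus WT in replicates 1 and 2 (horizontal axis, higher Malat1) and in replicates 3 and 4 (vertical axis, lower Malat1) for 10920 genes, 2 of which lie outside the axes. The 31 genes called with the pair term (orange circles) lie in the lower left and upper right, which the pair term favours by its construction, and the 8 purple squares are genes called in replicates 3 and 4 with the opposite sign in replicates 1 and 2.

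The 12 h hepatocytes place the 36 h levels in time. Both times are compared with the same WT libraries, so their fold changes are set side by side and not tested for likeness. Saa1 was counted at 346, 1505, 25.5 and 19.8 CPM in 12 h replicates 1 to 4, with scaling over the 12 hepatocyte libraries, and at 39.1, 57.3, 82.6 and 41.9 CPM at 36 h on the same scale. Replicates 1 and 2 were thus far higher at 12 h than at 36 h, and replicates 3 and 4 lower. Lcn2 was at 74.3, 534, 23.7 and 23.5 CPM at 12 h and at 12.1, 17.5, 17.0 and 22.03 CPM at 36 h, higher at 12 h in all 4 pairs. Hp was at 5160.0, 10276, 3732 and 3544 CPM at 12 h and at 3462 to 4568 CPM at 36 h. Against WT the log2 fold changes at 12 h were 4.75 for Saa1, 4.26 for Lcn2, 2.08 for Orm2 and 1.27 for Hp, with 0 genes of all tested called at that time. Orm2 was counted at 37.4, 199, 18.4 and 17.0 CPM at 12 h, so that replicates 3 and 4 lay within the WT range of 13.4 to 18.9 CPM. Replicate 2 was the highest 12 h library for all 4 genes, and without it these log2 fold changes were 2.89, 2.24, 0.60 and 0.81. Pck1, at 1746, 1088, 2359 and 2102 CPM at 12 h, had a log2 fold change of -0.88, and Angptl4, at 66.6, 19.2, 62.8 and 57.6 CPM, one of -1.79. Hsp90aa1, at 84.6 to 164 CPM at 12 h, had one of 0.05 then.

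The direct test of 36 h against 12 h, in 1 fit of the 12 hepatocyte libraries, called 0 of 11326 genes (0%) with edgeR. It had 725 genes (6.4%) at an unadjusted p under 0.05, and DESeq2 called 24 (0.212%). With replicate number as a block, 3 genes (0.0265%) were called, all higher at 36 h. Slco1a1, an organic anion importer, was at 87.7, 123, 35.9 and 49.3 CPM at 12 h and at 315, 359, 149 and 185 CPM at 36 h (1.82 ± 0.20, adjusted p = 0.0101). Acot3, a peroxisomal acyl-CoA thioesterase, was at 40.9 to 64.9 CPM at 12 h and 99.8 to 157 CPM at 36 h, and Fam25c at 2.99 to 11.3 and 8.15 to 28.0 CPM. The WT libraries lay at 68.0 to 234 CPM for Slco1a1 and at 57.0 to 118 CPM for Acot3.

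**Figure D5:**
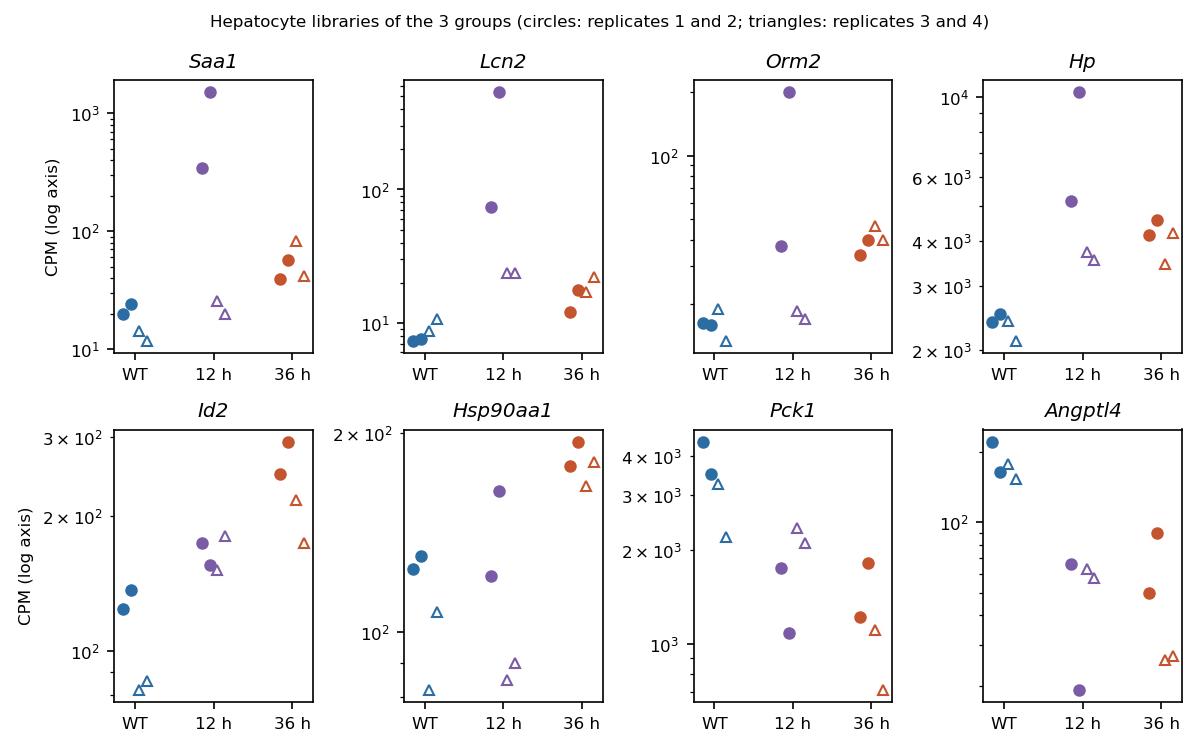
CPM on log axes in the 4 libraries of each hepatocyte group (WT blue, 12 h purple, 36 h orange; circles replicates 1 and 2, triangles replicates 3 and 4) for 8 genes. At 12 h Saa1 spans 19.8 to 1505 CPM, at 36 h 39.1 to 82.6 CPM.

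Stellate and endothelial cells at 36 h showed where the hepatocyte response differed. In 1 fit of the 24 WT and 36 h libraries of the 3 cell types, the difference between the hepatocyte and HSC responses was called for 9 of 13854 genes (0.065%), 3 higher (0.0217%) and 6 lower (0.0433%) in hepatocytes, and that between hepatocytes and LSECs for 4 (0.0289%). With replicate number as a block the counts were 31 and 36, and included these genes. In this fit, whose spread is shared with the other cell types, 47 genes (0.339%) were called for hepatocytes themselves, 23 higher (0.166%) and 24 lower (0.173%). Nuak2 and Rcor3, a subunit of a histone deacetylase complex, changed more in hepatocytes than in either other cell type. Nuak2 was at 6.67 to 11.4 CPM in WT and 15.8 to 26.9 CPM at 36 h in hepatocytes on the scale of this fit, at 12.2 to 15.5 and 11.8 to 14.95 CPM in HSCs and at 74.5 to 121 and 70.2 to 84.0 CPM in LSECs. The difference was 1.55 ± 0.26 against HSCs and 1.78 ± 0.25 against LSECs (adjusted p = 0.0298 and 0.00658, edgeR). Rcor3 differed by 1.23 ± 0.23 and 1.28 ± 0.23 (adjusted p = 0.0315 and 0.037), and Fzd6, a Wnt receptor, by 1.77 ± 0.31 against HSCs (adjusted p = 0.0315).

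Serpina3n, Saa2, Saa3 and Lcn2 had a higher log2 fold change in HSCs and in LSECs than in hepatocytes. The difference from HSCs was called for each of them, and that from LSECs for Saa2. Against LSECs the difference was -2.36, -5.97 and -3.56 for Serpina3n, Saa3 and Lcn2 and was not called (adjusted p = 0.530, 0.141 and 0.469, edgeR). Serpina3n was at 203 to 429 CPM in WT hepatocytes and 206 to 393 CPM at 36 h, and in HSCs at 0.905 to 1.42 CPM and 3.08 to 38.4 CPM (difference -4.53 ± 0.82, adjusted p = 0.0315, edgeR). Saa2 was at 5.63 to 14.5 and 10.5 to 24.4 CPM in hepatocytes, at 0.056 to 0.783 and 8.43 to 17.9 CPM in HSCs and at 0.028 to 0.078 and 3.23 to 30.9 CPM in LSECs. Its difference was -4.89 ± 0.92 against HSCs and -7.36 ± 1.11 against LSECs (adjusted p = 0.0351 and 0.00719). For Saa3 and Lcn2 the difference against HSCs was -6.99 ± 0.85 and -6.53 ± 1.11 (adjusted p = 0.00049 and 0.0299), although Lcn2 ended at like levels, 16.6 to 32.7 CPM in hepatocytes and 14.3 to 27.8 CPM in HSCs. Uba7, an enzyme of the interferon-induced ISG15 pathway, differed by -1.18 ± 0.22 against HSCs, at 17.3 to 24.8 and 9.42 to 18.7 CPM in hepatocytes and 162 to 206 and 258 to 314 CPM in HSCs. Cela2a, a pancreatic elastase gene counted at no more than 2.16 CPM in any of these libraries, was the remaining called gene in both tests. Leaving out WT hepatocyte replicate 1 reduced the 9 calls against HSCs to 1, that of Saa3. For Saa2, Saa3, Lcn2 and Cela2a the WT libraries of HSCs and LSECs were at or near 0, where a fitted fold change depends on the prior count and is no bound. In this fit Saa1, Orm2 and Hp had log2 fold changes of 7.78, 5.9997 and 3.32 in LSECs, each called. In hepatocytes they were lower, at 1.68, 1.33 and 0.81, and none was called (adjusted p = 0.317, 0.199 and 0.704, edgeR). In HSCs Saa1 (5.39) and Orm2 (3.699) were called, and Hp was not (adjusted p = 0.141, edgeR). The difference between cell types was not called for these genes, and their WT levels in HSCs and LSECs are not given here.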

How the data were processed

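RNA-seq of liver cells was deposited by the authors as raw counts per gene, 1 file a library. The submitters' processing notes name FastQC 0.11.4, Trimmomatic 0.35, TopHat2 2.1.0, SAMtools 0.1.18 and the mm10 build; the counting tool and strand setting are named nowhere in these sources. Genes were filtered with filterByExpr (minimum count 10, minimum total 15), scaled by TMM and tested with edgeR 4.0.16 in R 4.3.3 (quasi-likelihood, Benjamini-Hochberg over all genes tested, called at an adjusted p under 0.05), unpaired and with replicate number as a block. SE is the log2 fold change divided by the square root of F. The numbers come from the sample titles, and libraries of the same number deviated from their group means together (r = 0.547, 0.555, 0.560 and 0.449 for numbers 1 to 4), although WT 4 correlated more with 36 h 3 (0.540). Other libraries of different number on the same Malat1 side also correlated (0.397, 0.312 and 0.341), and those on opposite sides had r of -0.551 to -0.389. These values therefore do not show that equal numbers mark pairs apart from the Malat1 side. The split by Malat1 at 100 CPM was added after the data were seen. DESeq2 1.42.0, RLE scaling, no filter and leaving out libraries were alternatives. The fits were also run on simulated counts, whose means and spread were taken from the paired design. That simulation assumes the pairing and cannot test it. The members and gene lists were chosen with earlier results of these data known. Genes are named where they were called with the block, where they were the leading members of a list, or where a test between times, sides or cell types called them; further genes were picked after their values were seen. The C/EBP, cyclic AMP, SMAD and endoplasmic reticulum stress letters were also chosen then.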

Additional observations from a re-analysis of the deposited data

Results flagged for a closer look

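In 128 groups of 4 libraries (64 genes named or tabulated, WT and 36 h), 3 held a library far from the others, by the gap to its nearest neighbour as a share of the group's range; chance gives about 1 in 20. Ccrn4l in WT replicate 1, at 68.2 CPM against 32.3 to 36.0 CPM, had a share of 0.898. Saa3 in 36 h replicate 2, at 12.5 against 6.17 to 7.25 CPM, had 0.829, and Rcor3 in 36 h replicate 3, at 8.29 against 6.39 to 6.64 CPM, had 0.867.

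The 36 h response of hepatocytes differed from that of HSCs, by edgeR's test of the difference in log2 fold change, for Nuak2 (1.55), Fzd6 (1.77), Rcor3 (1.23), Lcn2 (-6.53), Saa2 (-4.89), Saa3 (-6.99), Serpina3n (-4.53), Uba7 (-1.18) and Cela2a (-4.46). It differed from that of LSECs for Nuak2 (1.78), Rcor3 (1.28), Saa2 (-7.36) and Cela2a (-7.06). Within hepatocytes, the response in replicates 3 and 4 exceeded that in replicates 1 and 2 by 2.57 for Dusp1 and by 3.35 for Slc25a25.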

How the results depend on the processing

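The unpaired comparison of 36 h with WT stayed at 0 called genes with RLE scaling, without a filter, in a fit of all 12 hepatocyte libraries and without each library in turn. It gave 31 with the replicate block, 51 with DESeq2, 24 with a term for the Malat1 side, 20 within replicates 1 and 2, 17 within replicates 3 and 4, 3, 6, 12, 12, 16, 18, 28 and 30 with the side term and 1 library left out, and 47 when fitted with all 24 WT and 36 h libraries of the 3 cell types. The 31 paired calls became 0 without the block, 160 without a filter, 298 with DESeq2 and the block, and 0, 24, 54 and 16 without replicate pairs 1 to 4. All 31 remained with RLE scaling (38 calls), without a filter and with DESeq2, 19 with the side term, and 0, 17, 22 and 10 without pairs 1 to 4. The side term and the replicate block could not be fitted together.

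For 36 h against 12 h the count went from 0 to 3 with the block and 24 with DESeq2. The 9 differences from HSCs became 31 with the block, 87 with DESeq2 and 1 to 20 without 1 hepatocyte library. The 4 differences from LSECs became 36, 104 and 3 to 14. The block kept all of these calls.

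Signs turned for 5 uncalled genes in the unpaired fit. Without 1 library the log2 fold change ran from -0.0351 to 0.306 for Orm1, from -0.0504 to 0.768 for Slc25a25, from -0.0516 to 0.761 for Sgk1 and from -0.237 to 0.0839 for Serpina3n. Within replicates 1 and 2 it was -1.38 for Slc25a25, -1.51 for Sgk1 and -0.261 for Dusp1. With the side term and 1 library left out, it fell to -0.271 and -0.310 for Slc25a25 and to -0.456, -0.365, -0.146 and -0.00881 for Sgk1. The cause of these changes was not tested. Genes under about 1 CPM, such as Bmp4, rest on few counts.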
